A study of Mus musculus with 16 samples.

Results

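The 10 genes described here are those of iron recycling, haem breakdown and the NRF2 response: Hmox1, Blvra and Blvrb of haem breakdown, the ferritin genes Fth1 and Ftl1, the metal transport genes Slc40a1, Slc11a1 and Tfrc, and Nfe2l2 and Nqo1 of the NRF2 response. They were listed by name from the 55356 named gene rows of the deposited count table, with earlier results of these data known. 9 of the 10 were among the 10634 genes that passed the filter on low counts, and Slc40a1 was not.

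The libraries came from frozen sections through the whole brachiocephalic artery, the first branch of the aortic arch and a site of plaque in hyperlipidaemic mice. The 16 mice were females without Apoe, the gene of an apolipoprotein that clears cholesterol-rich particles from plasma. In 8 of them Mif was deleted as well, the gene of the cytokine macrophage migration inhibitory factor. The 4 groups of 4 mice were Apoe-/-Mif-/- and Apoe-/- mice after 42 weeks on a Western-type diet, aged 48 weeks, and the same genotypes after 24 weeks on it, aged 30 weeks. The diet held 0.2% cholesterol and 21.2% fat and was started at 6 weeks of age. The genotype labels name no cell-type-specific allele, so the loss of Mif cannot be placed in one cell type, and each library pooled several 5 µm sections of 1 mouse. All tissue of a section was lysed together, so fewer cells of a type and less RNA per cell cannot be told apart.

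Haem from engulfed red cells is opened by haem oxygenase into biliverdin, carbon monoxide and iron, and the biliverdin reductases turn biliverdin into bilirubin. The freed iron is stored in ferritin, a shell of heavy and light chains, or leaves the cell through ferroportin. Iron regulatory proteins bind a hairpin, the iron-responsive element, in the transcripts of ferritin, ferroportin and the transferrin receptor when iron is scarce. The factor NRF2 is held down by KEAP1 and, on oxidative stress, switches on genes that include Hmox1, Nqo1 and the ferritin genes; macrophages in plaque take up both red cells and oxidised lipid.

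The hairpins are shown because they set 4 of these transcripts apart from the other 6. A hairpin in the 5' UTR acts on translation, which RNA counts do not report, and those in the 3' UTR of Tfrc act on the stability of the transcript. In the GENCODE M21 principal transcripts (GRCm38), 1 hairpin motif (an unpaired C, 5 bases, the loop CAGTGN and 5 bases that pair with those before the loop) was found in the 5' UTR of Fth1, Ftl1 and Slc40a1 and 4 copies in the 3' UTR of Tfrc. Only the transcript strand was searched, and G-T pairs were allowed. The motif was present in 0.106% of 19764 5' UTRs and 0.481% of 21637 3' UTRs. Capitals mark the loop.
Fth1 5' UTR: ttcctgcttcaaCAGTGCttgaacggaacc
Ftl1 5' UTR: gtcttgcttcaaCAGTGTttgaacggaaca
Slc40a1 5' UTR: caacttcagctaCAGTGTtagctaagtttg
Tfrc 3' UTR, site 1: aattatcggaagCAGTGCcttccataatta
Tfrc 3' UTR, site 2: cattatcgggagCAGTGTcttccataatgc
Tfrc 3' UTR, site 3: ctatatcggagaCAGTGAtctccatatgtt
Tfrc 3' UTR, site 4: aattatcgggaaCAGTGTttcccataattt

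The motif of the antioxidant response element, TGACNNNGC, was searched on both strands in the RefSeq promoter windows (GRCm38.p6, 250 bases before to 50 after each start), which matched 8 of the 10 genes. It was present in the windows of Nfe2l2 and Blvra, against 12.4% of 32851 promoters, and these 2 stretches are shown because they are the matches among the 8. The share counts windows, and some of the 8 genes had several. Hmox1 and Slc40a1 had no window and were not searched. Sites farther from the start lie outside the windows, so a window without a match does not mean that the gene lacks the element. Capitals mark the motif, which in Blvra reads on the opposite strand.
Nfe2l2, chr2:75704614-75704913, minus strand, 240 bases before the start: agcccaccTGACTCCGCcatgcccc
Blvra, chr2:127070407-127070706, plus strand, 49 bases before the start: cgggaattGCTCGGTCAaggctccg

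Library totals ran between 378066 counts (library 1 of Apoe-/- at 42 weeks) and 8649525 counts (library 3 of Apoe-/- at 24 weeks). The deleted gene Mif had 2.39 to 19.9 CPM in the 8 Apoe-/-Mif-/- libraries and 23.2 to 301 CPM in the 8 Apoe-/- libraries, in CPM (library-scaled counts with TMM factors). All 10 smooth muscle markers, such as Acta2 and Myh11, and all 10 endothelial markers, such as Pecam1, were detected in each group. The mitochondrial share of counts ran between 0.751% and 10.2%. The sample codes of the 4 Apoe-/-Mif-/- libraries at 24 weeks hold the letter C and those of the other 12 the letter B. What the letters stand for is not given in the sources used here, and letter and group cannot be told apart for those 4. Each library was a separate mouse.

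The 10 genes covered a wide range of levels. Per kilobase of the GENCODE principal transcript, the median over the 16 libraries was 10128 CPM per kb for Fth1 and 6031 CPM per kb for Ftl1. It was 152 CPM per kb for Blvrb, 59.9 for Blvra, 51.6 for Slc11a1, 27.3 for Hmox1 and 14.98 for Nfe2l2. Nqo1, Tfrc and Slc40a1 were near the limit of detection, with medians of 0.924, 0.308 and 0.0602 CPM per kb. The ferritin genes were also the steadiest of the 10. The coefficient of variation of CPM over the 16 libraries was 35.6% for Fth1 and 51.4% for Ftl1, and 0.132% and 1.57% of tested genes varied less. The other 7 tested genes had coefficients of 93.7% (Slc11a1) to 151% (Nqo1), against a median of 145% over all tested genes.

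**Figure D1:**
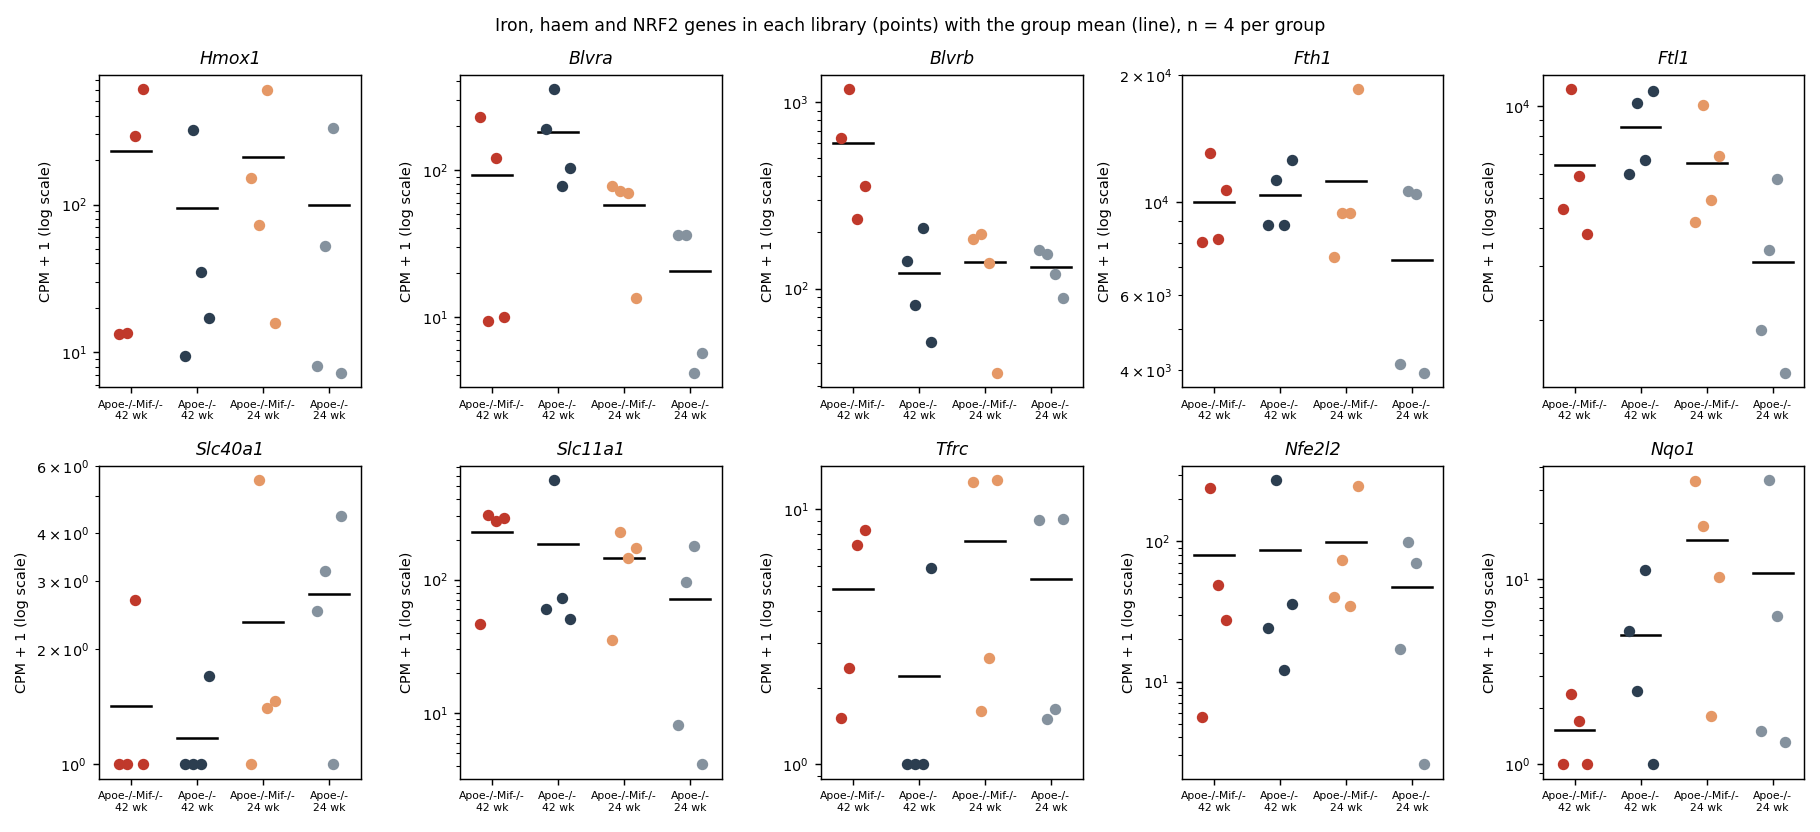
CPM + 1 on a log axis for each of the 10 genes (panels), with 1 point per library and a line at the group mean, n = 4 mice per group. Blvrb is high in the 4 Apoe-/-Mif-/- libraries at 42 weeks (236 to 1178 CPM), while the Hmox1 points of every group spread from at most 14.8 CPM to at least 317 CPM.

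None of the 9 tested genes passed edgeR's quasi-likelihood test (Benjamini-Hochberg adjusted p under 0.05 over 10634 genes) in any comparison. For Mif deletion at 42 weeks, 0 of 9 were called, against 0% of all genes. At an unadjusted p under 0.05 it was 1 of 9 higher in Apoe-/-Mif-/- arteries, Blvrb, against 9.26% of genes, and 0 lower, against 7.99%. Blvrb was also the 1 gene of the 9 whose 4 libraries all lay above those of Apoe-/- arteries, against 1.17% of genes, and none lay wholly below, against 1.03%. 4 of the 9 fold changes were above 1, against 51.8% of genes, and the median log2 fold change was -0.052 against 0.093 over all genes. DESeq2 called 1 of the 9, Blvrb, against 7.28% of the genes to which it gave an adjusted p, and limma, with voom or on the deposited variance-stabilised values, called 0. The deposited values hold no Tfrc, so in every comparison that fit covered only the other tested genes.

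For Mif deletion at 24 weeks, 0 of 9 were called, against 0.047% of genes. All 9 fold changes were above 1, Apoe-/-Mif-/- over Apoe-/-, against 45.1% of genes, and their median log2 fold change was 1.03 against -0.18 over all genes. Ftl1 alone was higher at an unadjusted p under 0.05, against 1.77% of genes, and 0 were lower, against 5.57%. The libraries of both genotypes overlapped for each of the 9, whereas 1.55% of genes lay wholly above and 2.29% wholly below. The sign turned for Hmox1 without library 3, for Tfrc without library 4 and for Nqo1 without library 1 of the Apoe-/-Mif-/- mice, with log2 fold changes of -0.33, -0.041 and -0.056, and Blvrb, at 0.079, turned in both limma fits (-0.059 with voom and -0.066 on the deposited values). DESeq2 also called 0, against 2.44% of genes, and both limma fits 0.

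Markers of cell types and other tissues were also compared between these groups. For Mif deletion at 24 weeks, a fold change above 1 was found for 15 of 18 macrophage and 10 of 12 foam cell markers. The same held for 8 of 10 smooth muscle and 5 of 5 erythroid markers. Medians of these log2 fold changes were 0.844, 0.587, 0.678 and 1.38 in that order. Below 1 were 6 of 10 endothelial, 6 of 8 fibroblast, 4 of 5 B and plasma cell and 2 of 3 neutrophil markers. None of these passed edgeR. For Mif deletion at 24 weeks the fold change was below 1 for 9 of 9 tested white adipocyte markers, of which Plin1 and Thrsp passed (edgeR adjusted p = 0.0466 and 0.0191). It was also below 1 for 7 of 7 brown adipocyte and 8 of 8 T and NK cell markers, none of which passed, and for 6 of 11 striated muscle markers, of which 3 passed. The median log2 fold changes of these 4 lists were -3.85, -4.66, -3.85 and -1.68. The white adipocyte sum was 219 to 1057 CPM in Apoe-/-Mif-/- and 187 to 25192 CPM in Apoe-/- arteries, and the brown adipocyte sum was 109 to 242 CPM in Apoe-/-Mif-/- and 78.5 to 15703 CPM in Apoe-/- arteries. The T and NK cell sum was 5.54 to 189 CPM in Apoe-/-Mif-/- and 4.73 to 4926 CPM in Apoe-/- arteries, and the striated muscle sum was 598 to 2080 CPM in Apoe-/-Mif-/- and 108 to 5359 CPM in Apoe-/- arteries. Lep, Elovl3 and Myh2 were at 0 in all 4 Apoe-/-Mif-/- libraries, and no marker of the 4 lists was at 0 in all 4 Apoe-/- libraries.

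The high ends of these Apoe-/- ranges came from libraries 1 and 4, which were also the lowest of their group for Hmox1, Fth1, Ftl1, Slc11a1, Nfe2l2 and Nqo1. Library 1 had 15703 CPM of brown adipocyte and 5359 CPM of striated muscle markers, and library 4 had 3559 and 2972 CPM of them and 4926 CPM of T and NK cell markers. The mitochondrial share was 1.08% to 3.06% in Apoe-/-Mif-/- arteries, against 10.2%, 0.751%, 1.08% and 6.31% in the 4 Apoe-/- libraries at 24 weeks. The part of these markers and of mitochondrial counts in the values of the 9 genes was not tested.

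For 42 against 24 weeks in Apoe-/-Mif-/- arteries, 0 of 9 were called, against 0.122% of genes. Blvrb was higher at an unadjusted p under 0.05, against 7.45% of genes, and Nqo1 lower, against 5.63%. Blvrb was the 1 gene of the 9 with all 4 libraries above, against 1.35%, and none lay wholly below, against 3.03%. 4 of the 9 fold changes were above 1, against 52.9% of genes, and the median log2 fold change was -0.019 against 0.12 over all genes. DESeq2 called 1, again Blvrb, against 5.69% of genes, and both limma fits called 0.

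For 42 against 24 weeks in Apoe-/- arteries, 0 of 9 were called, against 0% of genes. Blvra and Ftl1 were higher at an unadjusted p under 0.05, against 3.87% of genes, and 0 were lower, against 8.36%. The same 2 of 9 had all 4 libraries at 42 weeks above those at 24 weeks, against 1.06% of genes, and none lay wholly below, against 3.09%. 5 of the 9 fold changes were above 1, against 47.3% of genes, and the median log2 fold change was 0.51 against -0.12 over all genes. DESeq2 called 0, against 3.25% of genes, and both limma fits 0. The 4 comparisons share their groups in pairs, so a gene's values in one are not independent of those in another.

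Averaged over both diet durations, 0 of 9 were called for Mif deletion, against 0% of genes, and 0 were higher or lower at an unadjusted p under 0.05, against 5.08% and 7.9%. Averaged over both genotypes, 0 of 9 were called for 42 against 24 weeks, against 0.0376%. Blvra and Ftl1 were higher at an unadjusted p under 0.05, against 5.67%, and Nqo1 lower, against 7.97%. For the interaction, which asks whether the Mif effect differed between durations, 0 of 9 were called, against 0.686% of genes. Ftl1 was negative at an unadjusted p under 0.05, against 4.86%, and 0 were positive, against 9.36%. In these 3 tests limma called 0, with voom or on the deposited values, which lack Tfrc. DESeq2 called 0, against 3% and 5.13% of genes in the averaged tests and 4.78% for the interaction.

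**Figure D2:**
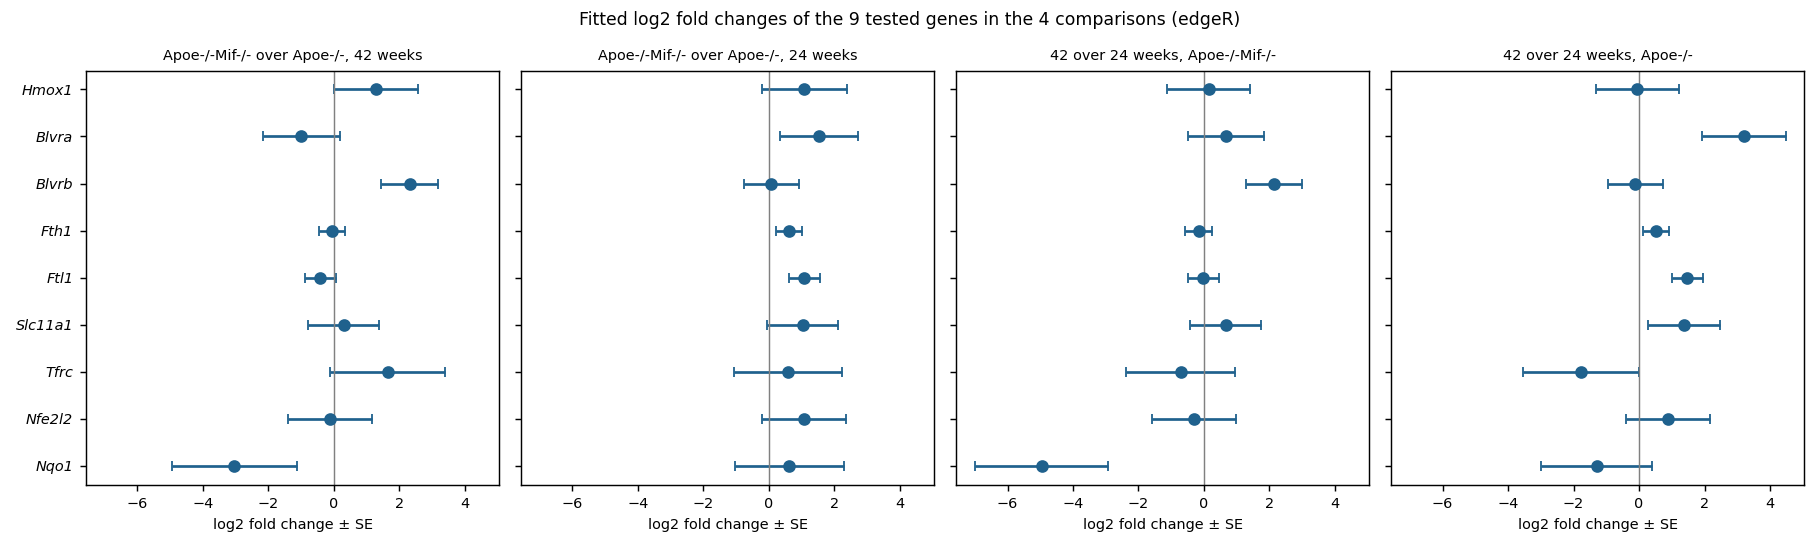
Fitted log2 fold changes with standard errors (bars) of the 9 tested genes in the 4 comparisons, from edgeR over 16 libraries. Blvrb stands at 2.33 ± 0.871 at 42 weeks for Mif deletion, and the bars of Fth1 (standard errors of 0.401 to 0.403) are the narrowest; Fth1 and Nfe2l2 in the left panel, Fth1, Ftl1 and Nfe2l2 in the third and Hmox1 and Blvrb in the right panel change sign with DESeq2's size factors.

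Haem breakdown begins with Hmox1, haem oxygenase 1. In Apoe-/-Mif-/- arteries at 42 weeks it had 12.3, 12.5, 289 and 607 CPM, against 8.43, 317, 34.0 and 16 CPM in Apoe-/- arteries. At 24 weeks it had 149, 72.2, 593 and 14.8 CPM in Apoe-/-Mif-/- arteries, against 7.07, 51.5, 327 and 6.25 CPM in Apoe-/- arteries. All 4 groups held both low and high libraries and overlapped. Library 4 of Apoe-/-Mif-/- at 42 weeks and library 3 at 24 weeks together held 47.7% of the summed CPM of the 16 libraries. The log2 fold change for Mif deletion was 1.29 ± 1.29 (SE) at 42 weeks (edgeR adjusted p = 0.63) and 1.08 ± 1.29 at 24 weeks (adjusted p = 0.962). Without library 4 of the Apoe-/-Mif-/- mice the value at 42 weeks was -0.013.

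Blvrb encodes biliverdin reductase B, a flavin reductase. It had 643, 1178, 236 and 352 CPM in 42-week Apoe-/-Mif-/- arteries, against 139, 80.7, 209 and 50.9 CPM in Apoe-/- arteries. The lowest Apoe-/-Mif-/- library thus lay above the highest Apoe-/- library, and the means were 602 ± 421 and 120.0 ± 69.98 CPM (SD, n = 4 each). Its 24-week levels were 183, 194, 137 and 34.2 CPM in Apoe-/-Mif-/- arteries and 161, 152, 119 and 87.5 CPM in Apoe-/- arteries, and these overlapped. The 4 Apoe-/-Mif-/- libraries at 42 weeks were therefore the 4 highest of the 16.

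The Blvrb log2 fold change for Mif deletion at 42 weeks was 2.33 ± 0.871 (edgeR adjusted p = 0.189), and DESeq2 passed it at 2.91 with an adjusted p of 0.0153. For 42 against 24 weeks in Apoe-/-Mif-/- arteries it was 2.13 ± 0.865 (edgeR adjusted p = 0.291), and DESeq2 passed it at 3.03 with an adjusted p of 0.0117. The interaction had a log2 value of 2.25 ± 1.19 and did not pass (edgeR adjusted p = 0.382). All 10 white adipocyte markers were detected at 42 weeks, with summed levels of 446 to 27216 CPM in Apoe-/-Mif-/- and 447 to 11487 CPM in Apoe-/- arteries, and 6 of 9 tested had a fold change above 1 without any passing edgeR. In Apoe-/-Mif-/- arteries at 24 weeks the sum was 219 to 1057 CPM with Lep at 0, and for 42 against 24 weeks 9 of 9 had a fold change above 1 and 2, Plin1 and Thrsp, passed (edgeR adjusted p = 0.0401 and 0.0106). Over the 16 libraries Blvrb had Pearson r = 0.486 (permutation p = 0.0558) and Spearman rho = 0.447 (permutation p = 0.084) with that sum, and BH-adjusted p over 45 relations of 0.179 and 0.224. The r was 0.355 without the 2 libraries farthest from the median and 0.427 in the 12 libraries coded B.

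Of 7 tested brown adipocyte markers, 5 had a fold change above 1 for Mif deletion at 42 weeks and 5 for 42 against 24 weeks in Apoe-/-Mif-/- arteries, and none passed edgeR. Their summed level was 51.0 to 5114 CPM in 42-week Apoe-/-Mif-/- arteries with Slc27a2 at 0, against 150 to 343 CPM in 42-week Apoe-/- arteries and 109 to 242 CPM, with Elovl3 at 0, in 24-week Apoe-/-Mif-/- arteries. The mitochondrial share was 6.01%, 7.3%, 1.94% and 8.64% in Apoe-/-Mif-/- and 2.98%, 1.57%, 1.74% and 3.55% in Apoe-/- arteries at 42 weeks, and 1.08% to 3.06% in Apoe-/-Mif-/- arteries at 24 weeks. Library 3, the lowest of its group for Blvrb, was also the lowest for all 3 of these measures. Over the 16 libraries Blvrb and the brown adipocyte sum had Pearson r = 0.275 (permutation p = 0.3, adjusted 0.386) and Spearman rho = 0.118 (permutation p = 0.664, adjusted 0.767), with r = 0.004 without 2 libraries and 0.279 in the libraries coded B. The part of adipocyte markers and mitochondrial counts in the Blvrb values was not tested.

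Blvra encodes biliverdin reductase A, the main reductase of adult tissues. It had 189.7, 355, 77.2 and 102 CPM in Apoe-/- arteries at 42 weeks, against 35.4, 35.3, 3.16 and 4.69 CPM at 24 weeks. Those groups did not overlap, and the means were 181 ± 126 and 19.6 ± 18.1 CPM (SD, n = 4 each). With Mif also deleted it had 229, 8.36, 119 and 9.03 CPM in 42-week Apoe-/-Mif-/- arteries, against 77.3, 70.8, 68.2 and 12.5 CPM at 24 weeks. At 42 weeks the Apoe-/-Mif-/- libraries thus split into a high and a low pair, on both sides of the 24-week range. The log2 fold change for 42 against 24 weeks was 3.21 ± 1.27 in Apoe-/- arteries (edgeR adjusted p = 0.326) and 0.68 ± 1.17 in Apoe-/-Mif-/- arteries (adjusted p = 0.852). The interaction, -2.53 ± 1.68, did not pass (edgeR adjusted p = 0.515).

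Most tested markers of 3 cell types were, like Blvra, higher on average in Apoe-/- arteries at 42 weeks, though none passed edgeR. The fold change was above 1 for 5 of 5 tested erythroid, 15 of 18 macrophage and 11 of 12 foam cell markers and for 1 of 7 brown adipocyte markers. The erythroid sum was 546 to 20088 CPM at 42 weeks, against 136 to 1280 CPM at 24 weeks, with Klf1 at 0 in both groups. The brown adipocyte sum was 150 to 343 CPM at 42 weeks, against 78.5 to 15703 CPM at 24 weeks. Over the 16 libraries Blvra and the erythroid sum had Pearson r = 0.463 (permutation p = 0.07, adjusted 0.184) and Spearman rho = 0.453 (permutation p = 0.0794, adjusted 0.224), with r = 0.073 without 2 libraries and 0.557 in those coded B. With the brown adipocyte sum Blvra had r = -0.511 (permutation p = 0.0432, adjusted 0.162) and rho = -0.376 (permutation p = 0.153, adjusted 0.312), with r = -0.558 without 2 libraries and -0.527 in those coded B. With the macrophage sum Blvra had r = 0.304 (permutation p = 0.255, adjusted 0.347) and rho = 0.244, with r = 0.134 without 2 libraries. With the foam cell sum it had r = 0.341 (permutation p = 0.199, adjusted 0.299) and rho = 0.235, with r = 0.113 without 2 libraries. The part of these markers in the Blvra values was not tested.

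The ratio of Blvrb to Blvra counts within a library needs no scaling to library size, but its precision depends on both counts. Blvra had only 6 and 21 counts in libraries 2 and 4 of the 42-week Apoe-/-Mif-/- mice. In libraries 3 and 4 of the 24-week Apoe-/- mice it had 29 and 15. The ratio was chosen after the counts had been seen. It was 2.81, 141.0, 1.98 and 39.0 in Apoe-/-Mif-/- arteries at 42 weeks, against 0.733, 0.227, 2.71 and 0.5 in Apoe-/- arteries. At 24 weeks it was 2.36, 2.75, 2.01 and 2.74 in Apoe-/-Mif-/- arteries, against 4.54, 4.3, 37.8 and 18.7 in Apoe-/- arteries. At 24 weeks the Apoe-/-Mif-/- libraries all lay below the Apoe-/- ones, whereas at 42 weeks 3 of 4 lay above every Apoe-/- library. By a two-sided exact permutation test of the log2 ratio, whose smallest possible p is 0.0286, the difference had p = 0.0571 at 42 weeks and 0.0286 at 24 weeks. For 42 against 24 weeks it had p = 0.229 in Apoe-/-Mif-/- and 0.0286 in Apoe-/- arteries, by the same exact test. Adjusted over 8 such tests these exact p-values were 0.114, 0.0762, 0.261 and 0.0762, so none passed.

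**Figure D3:**
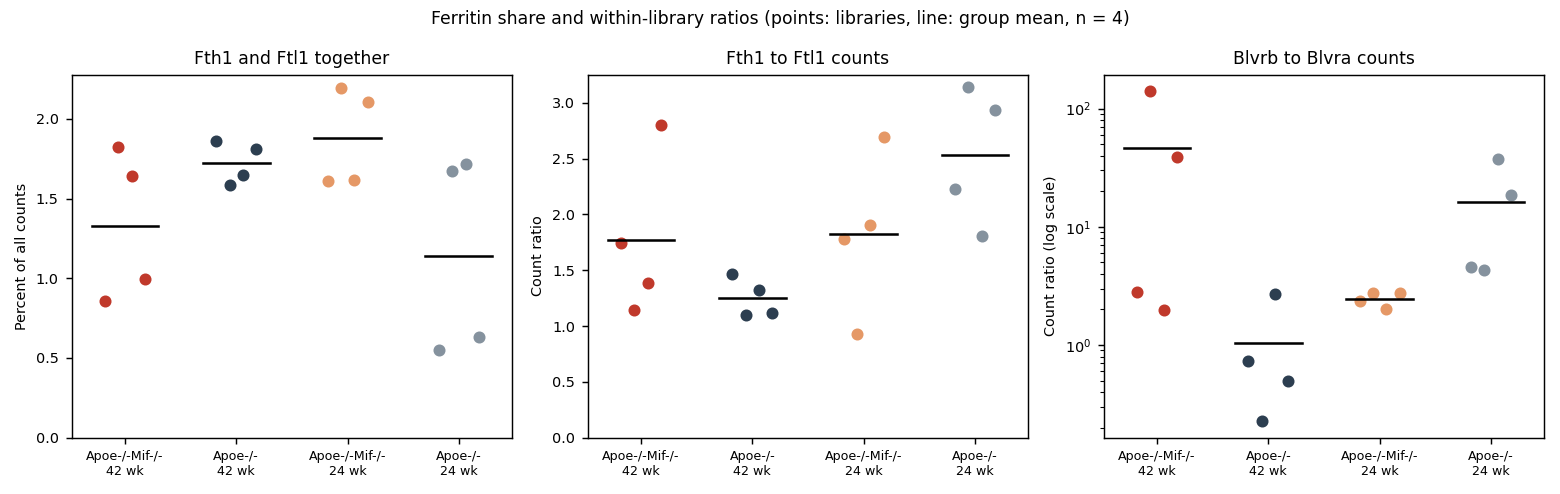
Percent of all counts taken by Fth1 and Ftl1 together, the Fth1 to Ftl1 count ratio and the Blvrb to Blvra count ratio (log axis), 1 point per library with a line at the group mean, n = 4 mice per group. The Blvrb to Blvra ratio lies at 2.01 to 2.75 in Apoe-/-Mif-/- and 4.3 to 37.8 in Apoe-/- arteries at 24 weeks, and the ferritin share is between 0.547% and 2.2% of counts.

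Ferritin heavy chain, the ferroxidase subunit, is encoded by Fth1. It had 8036, 13074, 8169.6 and 10673 CPM in 42-week Apoe-/-Mif-/- arteries, against 8825, 11242, 8819 and 12541 CPM in Apoe-/- arteries. At 24 weeks it had 7411, 9397, 9421 and 18551 CPM in Apoe-/-Mif-/- arteries, against 4125, 10639, 10416 and 3928 CPM in Apoe-/- arteries. All groups overlapped, and libraries 1 and 4 of Apoe-/- at 24 weeks were the 2 lowest of the 16. The log2 fold change for Mif deletion was 0.62 ± 0.403 at 24 weeks (edgeR adjusted p = 0.832). At 42 weeks it was -0.052 ± 0.401 (adjusted p = 0.962) and turned to 0.21 with DESeq2's size factors. The standard error is the smallest of the 9.

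Ftl1 encodes the light chain, which aids the formation of the iron core. It had 6003, 10234, 6649 and 11252 CPM in Apoe-/- arteries at 42 weeks, against 1853, 3385, 5771 and 1336 CPM at 24 weeks. The lowest library at 42 weeks lay above the highest at 24 weeks, with means of 8535 ± 2597 and 3086 ± 1990 CPM (SD, n = 4 each). With Mif also deleted it had 4614, 11424, 5905 and 3807 CPM in 42-week Apoe-/-Mif-/- arteries, against 4167, 10098, 4939.8 and 6881 CPM at 24 weeks, and these overlapped. The low level of Ftl1 was thus that of the Apoe-/- arteries at 24 weeks, where 3 of 4 libraries lay below every other library of the 16.

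The Ftl1 log2 fold change for 42 against 24 weeks was 1.47 ± 0.476 in Apoe-/- arteries (edgeR adjusted p = 0.322) and -0.019 ± 0.466 in Apoe-/-Mif-/- arteries (adjusted p = 0.992), where it turned to 0.66 with DESeq2's size factors. For Mif deletion it was 1.08 ± 0.471 at 24 weeks (edgeR adjusted p = 0.596) and -0.41 ± 0.467 at 42 weeks (adjusted p = 0.68). The interaction, -1.49 ± 0.663, did not pass (edgeR adjusted p = 0.296).

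Libraries 1 and 4 of Apoe-/- at 24 weeks were the 2 lowest of the 16 for Ftl1 and also for the sum of macrophage markers, among them Cd68 and Csf1r. All 18 of them were detected in every group, with summed levels of 18137 to 43640 CPM in Apoe-/- arteries at 42 weeks and 2620 to 21298 CPM at 24 weeks, and 15 of 18 had a fold change above 1 for 42 against 24 weeks without any passing edgeR. For Mif deletion at 24 weeks it was also 15 of 18, again with none passing. In Apoe-/-Mif-/- arteries the sums were 13521 to 37446 CPM at 42 weeks and 11225 to 24158 CPM at 24 weeks. Of 12 foam cell markers, such as Gpnmb and Trem2, 11 had a fold change above 1 in Apoe-/- arteries at 42 weeks, with sums of 47479 to 90834 CPM, against 11396 to 62940 CPM at 24 weeks. Over the 16 libraries Ftl1 and the macrophage sum, both as log2(CPM + 1), had Pearson r = 0.904 (permutation p = 2e-05, BH-adjusted over 45 relations 0.0009) and Spearman rho = 0.809 (permutation p = 0.00024, adjusted 0.0108). The r was 0.802 without the 2 libraries farthest from the median and 0.926 in the 12 libraries coded B. The draws for these p-values crossed the 4 groups, so differences between groups and variation among mice within a group are not separated.

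Those 2 libraries also held the highest brown adipocyte and striated muscle sums of their group and mitochondrial shares of 10.2% and 6.31%, against 0.751% and 1.08% in libraries 2 and 3. In the 42 against 24 week comparison of Apoe-/- arteries the fold change was above 1 for 1 of 7 brown adipocyte, 3 of 11 striated muscle and 2 of 8 T and NK cell markers, and none passed edgeR. The striated muscle sum was 93.8 to 559 CPM at 42 weeks, against 108 to 5359 CPM at 24 weeks, the T and NK cell sum was 59.0 to 531 CPM, against 4.73 to 4926 CPM, and no marker of the 3 lists was at 0 in all 4 libraries of either group. Over the 16 libraries Ftl1 and the brown adipocyte sum had Pearson r = -0.446 (permutation p = 0.0793, adjusted 0.188) and Spearman rho = -0.106 (permutation p = 0.696, adjusted 0.783), with r = -0.574 without 2 libraries and -0.446 in the libraries coded B. The part of these markers and of mitochondrial counts in the Ftl1 values was not tested.

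For Fth1 the same relation had Pearson r = 0.716 (permutation p = 0.00361, adjusted 0.0271) and Spearman rho = 0.471 (permutation p = 0.0677, adjusted 0.224). It rested on the 2 libraries farthest from the median, without which r was 0.126, and r was 0.871 in the libraries coded B. For Hmox1 it was weak, with r = 0.412 (permutation p = 0.115, adjusted 0.231), rho = 0.397 (permutation p = 0.129, adjusted 0.305), 0.046 without those 2 libraries and 0.464 in the libraries coded B.

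**Figure D4:**
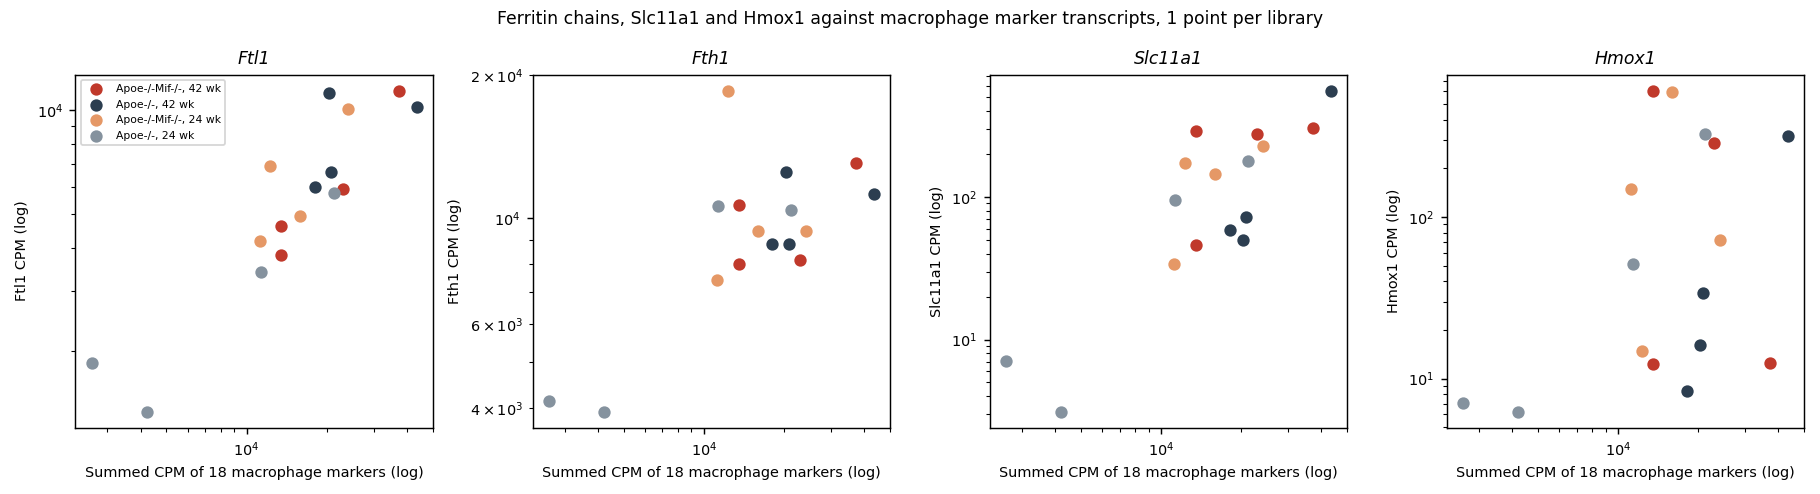
CPM of Ftl1, Fth1, Slc11a1 and Hmox1 against the summed CPM of 18 macrophage markers, both on log axes, with 1 point per library coloured by group. Ftl1 and Slc11a1 follow the marker sum (r = 0.904 and 0.85), Hmox1 does so weakly (r = 0.412), and 2 Apoe-/- libraries at 24 weeks lie apart at the low end.

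Ferritin transcripts took a large share of each library. Fth1 and Ftl1 together made up 1.33 ± 0.474% of counts in Apoe-/-Mif-/- and 1.72 ± 0.131% in Apoe-/- arteries at 42 weeks (SD, n = 4 each). At 24 weeks they made up 1.88 ± 0.314% in Apoe-/-Mif-/- and 1.14 ± 0.639% in Apoe-/- arteries. Single libraries ran between 0.547% (exact Clopper-Pearson 95% interval 0.537% to 0.557%), in Apoe-/- at 24 weeks, and 2.2% (2.18% to 2.21%), in Apoe-/-Mif-/- at 24 weeks. These intervals cover counting error only, since the reads carry no molecular identifiers. Near-identical pseudogene rows took little of this signal, although reads shared with them cannot be placed with certainty. Ftl1-ps1 held 1.47% to 2.74% as many counts as Ftl1, and Fth1-ps at most 0.103% as many as Fth1.

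The Fth1 to Ftl1 count ratio was 1.74, 1.14, 1.38 and 2.8 in Apoe-/-Mif-/- and 1.47, 1.1, 1.33 and 1.11 in Apoe-/- arteries at 42 weeks. At 24 weeks it was 1.78, 0.931, 1.91 and 2.7 in Apoe-/-Mif-/- and 2.23, 3.14, 1.8 and 2.94 in Apoe-/- arteries. In Apoe-/- arteries all 4 ratios at 42 weeks thus lay below those at 24 weeks, a 0.504-fold difference (two-sided exact permutation p = 0.0286, adjusted over the 8 tests 0.0762). The other 3 differences of this ratio had exact permutation p-values of 0.171 to 0.886.

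Slc11a1 encodes NRAMP1, the pump that moves divalent metals out of the phagosomes of macrophages. It had 45.7, 302, 276 and 290.3 CPM in Apoe-/-Mif-/- and 59.0, 557, 72.3 and 49.5 CPM in Apoe-/- arteries at 42 weeks. The 24-week levels were 34.1, 228, 144 and 173 CPM in Apoe-/-Mif-/- and 7.07, 95.1, 178 and 3.13 CPM in Apoe-/- arteries. In both Apoe-/-Mif-/- groups 3 libraries were high and 1 low, while in Apoe-/- arteries at 42 weeks 1 was high and 3 low, and all groups overlapped. None of the 4 log2 fold changes, which ran between 0.31 and 1.38, passed edgeR (adjusted p = 0.656 to 0.946). With the macrophage sum Slc11a1 had Pearson r = 0.85 (permutation p = 0.00013, adjusted 0.00195) and Spearman rho = 0.776 (permutation p = 0.00055, adjusted 0.0124), with r = 0.61 without 2 libraries and 0.87 in the libraries coded B.

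Slc40a1 encodes ferroportin, the cell's iron exporter. It had 60 counts in all, in 8 of the 16 libraries. Its counts were 0, 0, 7 and 0 in Apoe-/-Mif-/- and 0, 0, 0 and 1 in Apoe-/- arteries at 42 weeks, and 0, 22, 2 and 1 in Apoe-/-Mif-/- and 3, 13, 0 and 11 in Apoe-/- arteries at 24 weeks. Levels were therefore at or near the limit of detection in every group. A count of 0 allows up to 3 counts, which is 0.327 CPM in the deepest of the libraries at 0 and 6.32 CPM in the shallowest. Slc40a1 did not pass the filter on low counts, so the main edgeR fit did not test it. The edgeR fit without that filter did not call it in any comparison.

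Tfrc, the transferrin receptor for iron uptake, was also scarce, with 158 counts in 13 libraries. It had 0.514, 1.39, 6.23 and 7.31 CPM in Apoe-/-Mif-/- and 0, 0, 0 and 4.88 CPM in Apoe-/- arteries at 42 weeks. Levels at 24 weeks were 11.8, 0.615, 1.62 and 12 CPM in Apoe-/-Mif-/- and 8.08, 0.507, 0.653 and 8.13 CPM in Apoe-/- arteries. Each group mixed libraries with and without clear signal, and all overlapped. No difference passed edgeR (adjusted p = 0.654 to 0.983 in the 4 comparisons).

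Nfe2l2 encodes NRF2 itself, whose activity is set largely at the protein. It had 4.62, 238, 47.7 and 26.7 CPM in Apoe-/-Mif-/- and 23.2, 274, 11.2 and 34.9 CPM in Apoe-/- arteries at 42 weeks. At 24 weeks it had 39.3, 72.2, 33.7 and 246 CPM in Apoe-/-Mif-/- and 16.2, 98.4, 68.9 and 1.56 CPM in Apoe-/- arteries. The groups overlapped throughout, and in each group other than Apoe-/- at 24 weeks 1 library stood well above the others. No comparison passed edgeR (adjusted p = 0.831 to 0.972).

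Nqo1, a quinone reductase used as a readout of NRF2 activity, was low. It had counts of 0, 1, 3 and 0 in Apoe-/-Mif-/- arteries at 42 weeks, against 50, 89, 4 and 20 at 24 weeks, or 0 to 1.39 CPM against 0.812 to 32.7 CPM. The highest library at 42 weeks lay above the lowest at 24 weeks, so the groups overlapped. In Apoe-/- arteries it had 4.22, 1.48, 10.1 and 0 CPM at 42 weeks, against 0.505, 33.1, 5.33 and 0.313 CPM at 24 weeks. The log2 fold change for 42 against 24 weeks was -4.96 ± 2.04 in Apoe-/-Mif-/- (edgeR adjusted p = 0.299) and -1.29 ± 1.7 in Apoe-/- arteries (adjusted p = 0.813). For Mif deletion at 42 weeks it was -3.04 ± 1.92 (edgeR adjusted p = 0.405). Nfe2l2 and Nqo1 had r = 0.362 over the 16 libraries (permutation p = 0.17, BH-adjusted over 36 pairs 0.584) and rho = 0.49 (permutation p = 0.0567, adjusted 0.255), with r = 0.376 without 2 libraries and 0.309 in the libraries coded B.

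White adipocyte markers in the Apoe-/-Mif-/- groups had sums of 446 to 27216 CPM at 42 weeks and 219 to 1057 CPM at 24 weeks. As given for Blvrb, 9 of 9 had a fold change above 1 and 2 passed. Over the 16 libraries Nqo1 and that sum had Pearson r = -0.607 (permutation p = 0.0137, adjusted 0.0773) and Spearman rho = -0.593 (permutation p = 0.0174, adjusted 0.154). The r was -0.602 without 2 libraries and -0.491 in the libraries coded B, and the part of these markers in the Nqo1 values was not tested.

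Among the 36 pairs of the 9 tested genes, 7 had an adjusted Pearson permutation p under 0.05, and 6 of these 7 were the pairs among Fth1, Ftl1, Slc11a1 and Nfe2l2, as log2(CPM + 1). No pair passed by Spearman rho. Slc11a1 and Nfe2l2 had r = 0.761 (permutation p = 0.00068, adjusted 0.00756) and rho = 0.709 (permutation p = 0.00278, adjusted 0.05004), with r = 0.65 without 2 libraries and 0.789 in the libraries coded B. Fth1 and Ftl1 had r = 0.786 (permutation p = 0.00072, adjusted 0.00756) and rho = 0.65 (permutation p = 0.00768, adjusted 0.0691), and their r was 0.411 without 2 libraries and 0.865 in the libraries coded B. Fth1 and Slc11a1 had r = 0.789 (permutation p = 0.0009, adjusted 0.00756) and rho = 0.674 (permutation p = 0.00538, adjusted 0.0646), and their r was 0.381 without 2 libraries and 0.841 in the libraries coded B. Ftl1 and Slc11a1 had r = 0.757 (permutation p = 0.00105, adjusted 0.00756) and rho = 0.553 (permutation p = 0.0289, adjusted 0.155), with r = 0.337 without 2 libraries and 0.746 in those coded B. Fth1 and Nfe2l2 had r = 0.753 (permutation p = 0.00099, adjusted 0.00756) and rho = 0.721 (permutation p = 0.00237, adjusted 0.05004), with r = 0.673 and 0.718. Ftl1 and Nfe2l2 had r = 0.655 (permutation p = 0.00611, adjusted 0.0367) and rho = 0.55 (permutation p = 0.03, adjusted 0.155), with r = 0.428 and 0.66. The 2 libraries left out were those farthest from the median of the first-named gene, so they can differ between pairs. For Fth1 and Ftl1 they were libraries 1 and 4 of Apoe-/- at 24 weeks. Without them the r of Fth1 with Ftl1, and of each ferritin gene with Slc11a1, was 0.337 to 0.411. That of Ftl1 with Nfe2l2 was 0.428, so these relations rested largely on those libraries. The seventh pair was Hmox1 and Slc11a1, with r = 0.626 (permutation p = 0.00778, adjusted 0.04) and rho = 0.621 (permutation p = 0.0122, adjusted 0.088), 0.616 without 2 libraries and 0.751 in the libraries coded B. The libraries left out for this pair were the 2 highest for Hmox1, library 4 of Apoe-/-Mif-/- at 42 weeks and library 3 at 24 weeks. The points share the depth and scaling of their library.

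The genes whose levels over the 16 libraries were most like those of each member, among 10021 candidates, are given as a description. Ftl1 was closest to Ctsd, the lysosomal protease cathepsin D (Spearman rho = 0.968, Pearson r = 0.915), and to Psap, the lysosomal lipid-hydrolase cofactor prosaposin (0.953 and 0.912). Fth1 was closest to Ptdss1, a phosphatidylserine synthase (0.894 and 0.871). Hmox1 was closest to Pdgfa, a growth factor for mesenchymal cells (0.897 and 0.746), and Slc11a1 and Nfe2l2 both to Tpm3, a tropomyosin (rho of 0.876 and 0.856). Blvrb was closest to Tor1a (0.879), Blvra to Stx4a (0.762), Tfrc to Nf2 (0.844) and Nqo1 to Rbm17 (0.867).

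The other genes of these pathways were read from 6 lists, and none of their tested members passed edgeR in any of the 4 comparisons. Over all tested genes the share with a fold change above 1 was 51.8% and 45.1% for Mif deletion at 42 and 24 weeks (median log2 fold changes of 0.093 and -0.18), and 52.9% and 47.3% for 42 against 24 weeks in Apoe-/-Mif-/- and Apoe-/- arteries (medians of 0.12 and -0.12). Counts below are to be read against these shares, and the lists were not tested as sets. Of 28 tested NRF2 target enzymes, 13 had a fold change above 1 for Mif deletion at 42 weeks and 9 at 24 weeks, with median log2 fold changes of -0.16 and -0.4. For 42 against 24 weeks it was 18 in Apoe-/-Mif-/- (median 0.44) and 14 in Apoe-/- arteries (median 0.028). Gstm2, a glutathione transferase, had 530, 1046, 124 and 557 CPM in Apoe-/-Mif-/- and 124, 135, 72.0 and 25.8 CPM in Apoe-/- arteries at 42 weeks. The lowest Apoe-/-Mif-/- library lay below the highest Apoe-/- library, and the log2 fold change of 2.66 ± 0.926 did not pass (edgeR adjusted p = 0.178). Gclc, the catalytic subunit that limits glutathione synthesis, had 3.08, 8.36, 39.7 and 458 CPM in 42-week Apoe-/-Mif-/- arteries, against 3.93, 0.41, 1.42 and 1.39 CPM at 24 weeks (edgeR adjusted p = 0.179).

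Of 20 tested genes of iron transport, storage and sensing, 9 had a fold change above 1 for Mif deletion at 42 weeks and 4 at 24 weeks, 7 for 42 against 24 weeks in Apoe-/-Mif-/- and 8 in Apoe-/- arteries. The median log2 fold changes of the list were -0.293 and -0.238 for Mif deletion at 42 and 24 weeks and -0.338 and -0.204 for duration in Apoe-/-Mif-/- and Apoe-/- arteries. Lcn2, the siderophore-binding lipocalin, had the smallest p of the list in both duration comparisons. It had 41.1, 50.1, 80.0 and 356 CPM at 42 weeks in Apoe-/-Mif-/- arteries, against 837, 299, 473 and 1692 CPM at 24 weeks (log2 fold change -2.64 ± 0.881, edgeR adjusted p = 0.223). In Apoe-/- arteries it had 299, 29.3, 134 and 62.1 CPM at 42 weeks, against 282, 628, 1096 and 379 CPM at 24 weeks (-2.19 ± 0.867, adjusted p = 0.326). Only 1 library at 42 weeks reached the 24-week range in each genotype. Ncoa4, the receptor that delivers ferritin to lysosomes, had 1.03, 0, 8.38 and 0 CPM in Apoe-/-Mif-/- and 0, 22.2, 6.5 and 111 CPM in Apoe-/- arteries at 42 weeks (edgeR adjusted p = 0.298).

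Of 8 tested genes of haem uptake and scavenging, 6 had a fold change above 1 for Mif deletion at 42 weeks and 4 at 24 weeks, 7 for 42 against 24 weeks in Apoe-/-Mif-/- and 4 in Apoe-/- arteries, with medians in the same order of 0.445, -0.19, 1.16 and -0.059. Abcg2, a transporter that can export porphyrins, had 1 count over the 4 Apoe-/-Mif-/- libraries at 24 weeks, against 47, 33, 138 and 35 counts in the Apoe-/- libraries. Those groups did not overlap, and the difference did not pass edgeR (adjusted p = 0.248). Cd36, a receptor for oxidised lipoprotein, had 363, 100.3, 29.5 and 125 CPM in 42-week Apoe-/-Mif-/- arteries, against 17, 41.8, 14.8 and 7.4 CPM at 24 weeks (edgeR adjusted p = 0.278). Hp, haptoglobin, which binds free haemoglobin, had 213 to 4986 CPM in Apoe-/-Mif-/- and 190.4 to 2378 CPM in Apoe-/- arteries at 42 weeks (edgeR adjusted p = 0.464).

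Of 9 tested genes of haem synthesis, 3 had a fold change above 1 for Mif deletion at 42 weeks and 4 at 24 weeks, and 5 in each duration comparison, with medians of -1.86 and -0.0437 for Mif deletion and 0.407 and 1.03 for duration. Alas2, the erythroid enzyme of the first step, had 2.57, 0, 0.718 and 0.86 CPM in Apoe-/-Mif-/- and 4.22, 221, 0 and 41.2 CPM in Apoe-/- arteries at 42 weeks (edgeR adjusted p = 0.185). Erythroid markers, of which Alas2 is one, stood with it: 9 of 10 had a row, their summed level was 988 to 6301 CPM in Apoe-/-Mif-/- and 546 to 20088 CPM in Apoe-/- arteries at 42 weeks, and Klf1 was at 0 in all 8 libraries. Their part in the Alas2 values was not tested.

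Of 9 tested regulators and partners of NRF2, 7 had a fold change above 1 for Mif deletion at 42 weeks and 2 at 24 weeks, 5 for 42 against 24 weeks in Apoe-/-Mif-/- and 1 in Apoe-/- arteries. The medians in that order were 1.5, -0.642, 0.203 and -0.538. The smallest p values of that list belonged to Maff at 42 weeks and Bach2 at 24 weeks for Mif deletion (edgeR adjusted p = 0.36 and 0.836), and to Nfe2l1 in Apoe-/-Mif-/- and Bach2 in Apoe-/- arteries for diet duration (adjusted p = 0.656 and 0.385). Of 8 tested genes of lipid peroxidation and ferroptosis, an iron-dependent form of cell death, 5 and 2 had a fold change above 1 for Mif deletion at 42 and 24 weeks, and 7 and 3 for 42 against 24 weeks in Apoe-/-Mif-/- and Apoe-/- arteries (medians 0.961, -0.741, 0.915 and -0.725). Acsl4, which loads polyunsaturated fatty acids into lipids, had 1, 1, 0 and 41 counts in Apoe-/-Mif-/- arteries at 42 weeks and 0 in all 4 Apoe-/- libraries (edgeR adjusted p = 0.185). Gpx4, the peroxidase that removes lipid hydroperoxides, had 881, 1717, 262 and 589 CPM in 42-week Apoe-/-Mif-/- arteries, against 276, 352, 346 and 477 CPM at 24 weeks (log2 fold change 1.25 ± 0.718, edgeR adjusted p = 0.461).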

How the data were processed

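Polyadenylated RNA of brachiocephalic artery sections was measured in 16 libraries (4 groups of 4 mice). Per the submitters' processing notes, the authors used cutadapt 1.18, Trim Galore 0.6.4, FastQC 0.11.5, STAR 2.5.2b and the build GRCm39; the counting program and annotation are not given in the sources used here. The libraries do not record strand, so overlapping antisense reads cannot be separated. The deposited table holds whole-number counts for 55359 rows; 1 unnamed row (at most 0.00257% of a library) and 2 reporter rows were left out. A second deposited table, the authors' variance-stabilised log2 values, served as an alternative input.

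Counts were tested with edgeR 4.0.16 (R 4.3.3; TMM, filterByExpr with a minimum count of 10 and total of 15, quasi-likelihood test, 12 residual degrees of freedom) in 1 fit of 4 group means, with Benjamini-Hochberg adjustment over 10634 genes. SE is the log2 fold change divided by the root of F. Permutation tests (SciPy 1.17.1) used 100000 draws for correlations and all splits for ratios. The draws for correlations ran over all 16 libraries without regard to group. Their p-values therefore do not separate differences between groups from variation among mice within a group. Each r without 2 libraries left out the 2 farthest from the median of the log2 marker sum or first-named gene. The scripts were tested on simulated data. Alternatives were DESeq2 1.42.0, DESeq2's size factors in edgeR, no filter, limma 3.58.1 with voom or on the deposited log2 values, 2-group fits and leaving out each library of the groups compared.

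The members, gene lists and comparisons were chosen with earlier results of these data known, and the 2 count ratios after the counts had been seen. Named were all members, per pathway list every called gene and the gene with the smallest p in each of the 4 comparisons, and per member the genes most alike by Spearman rho. Some items that this rule names are not reported here. Transcript lengths and hairpins are from GENCODE M21 (GRCm38) and promoters from RefSeq (GRCm38.p6), not from the authors' annotation. Depth, with totals of 378066 to 8649525 counts, limits the counting precision of a value and does not cover variation among libraries.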

Additional observations from a re-analysis of the deposited data

Results flagged for a closer look

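11 of 40 sets of 4 libraries (10 genes in 4 groups) held 1 library far from the other 3 by Dixon's criterion (the gap to the nearest library as a share of the range), which chance gives in about 1 in 20 sets of normal values. These are count-based values near 0 for some genes, and 3 of the 11 sets had 3 libraries at 0, which meets the criterion by construction, so the 11 cannot be read against that rate. In Apoe-/-Mif-/- arteries at 42 weeks, library 1 stood low for Slc11a1 at 45.7 CPM, with the next at 276 CPM, and library 3 stood alone for Slc40a1 at 1.68 CPM, with the other 3 at 0. In Apoe-/- arteries at 42 weeks, library 2 stood high for 3 genes: Hmox1 at 317 CPM (next 34.0), Slc11a1 at 557 CPM (next 72.3) and Nfe2l2 at 274 CPM (next 34.9). In the same group library 4 stood alone for Slc40a1 at 0.698 CPM and for Tfrc at 4.88 CPM, with the other 3 at 0. In Apoe-/-Mif-/- arteries at 24 weeks, library 4 stood low for Blvra at 12.5 CPM (next 68.2) and library 2 stood high for Slc40a1 at 4.51 CPM (next 0.463). In Apoe-/- arteries at 24 weeks, library 3 stood high for Hmox1 at 327 CPM (next 51.5) and library 2 for Nqo1 at 33.1 CPM (next 5.33).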

How the results depend on the processing

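The count of members called was 0 in every comparison under every alternative other than DESeq2, which called 1, Blvrb, for Mif deletion at 42 weeks and 1, again Blvrb, for 42 against 24 weeks in Apoe-/-Mif-/- arteries; leaving out each library of the groups compared gave 0 to 0 over 80 fits. Of 684 refitted member fold changes 604 kept their sign and side of the threshold, 2 (Blvrb) newly passed and 78 changed sign; the cause was not tested. DESeq2's size factors raised the median log2 fold change of all genes over TMM by 0.187 for Mif deletion at 42 weeks, 0.059 at 24 weeks, 0.416 for duration in Apoe-/-Mif-/- arteries, 0.279 in Apoe-/- arteries and 0.109 for the interaction. Of 80 gene and group means under 2 other scalings 79 moved by less than 1 SD, and Fth1 in Apoe-/-Mif-/- arteries at 42 weeks moved to 13583 CPM.

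Signs changed, given as log2 fold changes, with DESeq2's size factors for Fth1 (0.21) and Nfe2l2 (0.71) for Mif deletion at 42 weeks, for Fth1 (0.32), Ftl1 (0.66) and Nfe2l2 (0.33) for duration in Apoe-/-Mif-/- arteries and for Hmox1 (0.25) and Blvrb (0.16) for duration in Apoe-/- arteries. DESeq2 changed the same 7, to 0.21, 0.71, 0.31, 0.65, 0.33, 0.24 and 0.15. The deposited log2 values changed Fth1 (0.14) and Nfe2l2 (0.031) for Mif deletion at 42 weeks, Blvrb (-0.066) at 24 weeks, Fth1 (0.37) and Ftl1 (0.403) for duration in Apoe-/-Mif-/- arteries, Hmox1 (0.46) and Blvrb (0.075) in Apoe-/- arteries and Hmox1 (-0.42) for the interaction. Voom changed Blvrb (-0.059) for Mif deletion at 24 weeks, Hmox1 (-0.19) and Blvra (-0.12) for duration in Apoe-/-Mif-/- arteries, Hmox1 (0.063) in Apoe-/- arteries and Hmox1 (-0.25) for the interaction. Fits of 2 groups changed Fth1 (0.041) and Nfe2l2 (0.21) for Mif deletion at 42 weeks and Ftl1 (0.037) for duration in Apoe-/-Mif-/- arteries, and no filter changed Fth1 (0.005) for Mif deletion at 42 weeks.

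Leaving out 1 library changed 47 signs. For Mif deletion at 42 weeks the values ran over -0.013 to 3.59 for Hmox1, -0.15 to 0.15 for Fth1, -0.008 to 1.96 for Slc11a1 and -1.76 to 1.77 for Nfe2l2. At 24 weeks they ran over -0.33 to 3.26 for Hmox1, -0.17 to 0.36 for Blvrb, -0.041 to 1.1 for Tfrc and -0.056 to 2.82 for Nqo1. For duration in Apoe-/-Mif-/- arteries they ran over -1.05 to 1.55 for Hmox1, -0.37 to 1.22 for Blvra, -0.35 to 0.33 for Fth1, -0.39 to 0.298 for Ftl1 and -1.98 to 0.79 for Nfe2l2. In Apoe-/- arteries they ran over -2.24 to 2.13 for Hmox1, -0.54 to 0.12 for Blvrb, -0.17 to 2.4 for Slc11a1, -0.89 to 1.56 for Nfe2l2 and -2.51 to 0.89 for Nqo1. For the interaction they ran over -1.98 to 2.51 for Hmox1, -1.76 to 0.84 for Slc11a1 and -2.99 to 0.53 for Nfe2l2.

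Over all genes DESeq2 called 717, 267, 561, 339 and 498 genes for Mif deletion at 42 and 24 weeks, duration in Apoe-/-Mif-/- and Apoe-/- arteries and the interaction, against 0, 5, 13, 0 and 73 with edgeR and 0 in each with both limma fits; edgeR without a filter called 150, 117, 419, 18 and 426. The deposited log2 table held no Slc40a1 or Tfrc. Depth limits Slc40a1, Tfrc and Nqo1 most. No paired analysis was possible because the labels give the groups no shared replicate numbers.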
